A study of Homo sapiens with 19 samples.

Results

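The 41 genes described here encode the contractile and load-bearing parts of the actin cytoskeleton, together with SRF, the serum response factor that controls many of them. They form a list named by symbol, whose members were chosen with earlier results of these data known. They were measured in SKBR3 cells, an established human breast cancer line with amplified ERBB2. Each gene was read from a probe set, a group of short probes on an Affymetrix array, that names that gene and no other. Where a gene had several, the one with the highest mean over the 19 arrays was used, and a probe set whose type admits cross-hybridising probes (_x_at) was used only where there was no other. Of the 41 genes, 36 had a probe set of their own and 5 did not (TPM3, FLNA, FLNC, FHL1 and ACTG1, for which no value is given). CNN1 and FHL3 lay below the filter on low signal, with signals of 0.9 to 7.4 and 0.5 to 18.2, so that 34 members were tested among 12925 genes, out of 19775 genes with a probe set.

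The series holds 5 groups. Untreated SKBR3 cells gave 3 arrays, and the labels name no sort for them. Cells given 60 nM epirubicin, an anthracycline that poisons topoisomerase II, for 3 days were sorted by flow cytometry on surface CD44, a hyaluronan receptor, into CD44-/lo and CD44hi fractions with 4 arrays each. Cells kept in 1% oxygen for 7 days were sorted in the same way, again with 4 arrays per fraction. All groups share the same line, growth medium and labelling from 200 ng of total RNA. Against untreated cells, treatment and sorting cannot be told apart, and treatment durations differ between epirubicin and hypoxia. The samples are labelled biological replicates of 1 line, and p-values measure only the spread between them.

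Contraction in non-muscle cells rests on bundles of actin and myosin II. Myosin heavy chains pull on actin filaments once their regulatory light chains are phosphorylated by MYLK and other kinases. Tropomyosins, calponins and caldesmon lie along the filaments, alpha-actinins cross-link them, and vinculin, talin and zyxin tie them to adhesion sites. Many genes for these proteins carry a CArG box, the DNA element bound by SRF. Its cofactors of the myocardin-related family (MRTF) bind monomeric actin, and are released as actin polymerises into filaments.

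No CArG box was found in the promoters of CALD1, PALLD and PDLIM7, and these are not shown. The promoters shown are those of members picked for holding a CArG box, to place it in the sequence. Each is the 250 bases before a RefSeq transcription start (GRCh38.p14), read 5′ to 3′ on the gene's strand, with CArG boxes in capitals. They are SRF (chr6:43171019-43171268, plus strand, with 2 boxes), MYLK (chr3:123620549-123620798, minus strand), MYL7 (chr7:44141333-44141582, minus strand), CNN2 (chr19:1026358-1026607, plus strand) and FHL2 (chr2:105399052-105399301, minus strand).
SRF: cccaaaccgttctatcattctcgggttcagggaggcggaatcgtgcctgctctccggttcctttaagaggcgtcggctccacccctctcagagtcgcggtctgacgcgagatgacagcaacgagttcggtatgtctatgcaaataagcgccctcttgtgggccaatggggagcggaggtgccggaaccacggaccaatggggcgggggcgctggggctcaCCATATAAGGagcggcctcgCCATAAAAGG
MYLK: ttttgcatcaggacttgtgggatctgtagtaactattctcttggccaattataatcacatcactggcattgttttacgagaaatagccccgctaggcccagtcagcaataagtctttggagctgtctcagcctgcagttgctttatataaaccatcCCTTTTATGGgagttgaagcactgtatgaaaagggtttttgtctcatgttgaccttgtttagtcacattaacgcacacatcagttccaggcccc
MYL7: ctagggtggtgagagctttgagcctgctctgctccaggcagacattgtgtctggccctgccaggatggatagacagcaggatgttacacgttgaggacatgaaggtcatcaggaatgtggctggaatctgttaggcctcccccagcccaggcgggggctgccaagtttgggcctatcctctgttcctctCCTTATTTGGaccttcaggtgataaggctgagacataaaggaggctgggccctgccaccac
CNN2: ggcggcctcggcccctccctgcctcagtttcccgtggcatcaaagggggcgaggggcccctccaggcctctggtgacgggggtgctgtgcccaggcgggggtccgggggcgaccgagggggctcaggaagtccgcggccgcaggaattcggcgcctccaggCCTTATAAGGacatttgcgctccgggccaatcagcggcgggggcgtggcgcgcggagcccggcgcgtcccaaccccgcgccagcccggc
FHL2: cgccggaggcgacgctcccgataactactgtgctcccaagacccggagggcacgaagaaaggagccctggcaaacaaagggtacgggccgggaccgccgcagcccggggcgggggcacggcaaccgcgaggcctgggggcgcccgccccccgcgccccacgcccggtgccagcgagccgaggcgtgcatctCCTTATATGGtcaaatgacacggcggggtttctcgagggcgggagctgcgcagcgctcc

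Of the 41 members, 38 were in the promoter table (MYL9, TAGLN and ACTB were not). A CArG box, on either strand of a window from 250 bases before to 50 bases after a start, occurred in 12 of these 38 genes (31.6%), against 1.6% of all 27305 genes in the table. By window, it occurred in 14 of 80 member windows (17.5%) and in 1.29% of 35116 windows of the table. The 12 genes were ACTG1, ACTN1, CNN2, FHL1, FHL2, FLNA, MYL7, MYLK, MYO1E, SRF, TES and TPM4. The list was named for SRF-type genes, so this share is a description of the list and no independent evidence. Other motifs were searched in the same way, with overlaps between motifs allowed. ACGTG, the core of the hypoxia response element, occurred in 31.6% of member genes against 24.9% of all genes, and CATTCC, the core of the TEAD element, in 42.1% against 16.7%. Among tested genes ACGTG stood the other way, at 29.0% of members against 31.9% of all. By window the shares were 18.8% against 21.4% for ACGTG, and 21.2% against 14.0% for CATTCC.

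Signals are MAS5 intensities, linear values that the authors had scaled to a common level per array, and they compare 1 probe set between arrays but not different genes with each other. Changes are differences of log2(signal + 4.2), which understate changes of dim genes, with ± standard error. A gene was called when limma's test over all 19 arrays gave an adjusted p under 0.05 across the 12925 genes. Values after ± on mean signals are SD, with n = 3 arrays for untreated cells and n = 4 for each sorted group. The 4 comparisons with untreated cells share the same 3 control arrays. Arrays of a group correlated at r = 0.919 to 0.984 across genes. Bacterial hybridisation controls averaged 1995 to 2356 per untreated array and 2131 to 5755 in CD44hi cells after epirubicin, with 2008 to 4217 in the CD44-/lo fraction and 2035 to 3162 after hypoxia. The ratio of 3' to 5' ACTB control signal, a measure of RNA quality, was 1.21 to 1.27 on untreated arrays, 1.22 to 1.85 after epirubicin and 1.20 to 1.41 after hypoxia. CD44, the sort marker, had signals of 78.8, 52.4 and 67.0 in untreated cells, 95.2, 132, 59.7 and 65.2 in CD44-/lo and 216, 1268, 340.1 and 769 in the CD44hi fraction after epirubicin, and 87.5, 20.5, 256 and 456 in CD44-/lo and 1050.3, 487, 972 and 1658 in CD44hi cells after hypoxia. Within each treatment every CD44hi array exceeded every CD44-/lo array.

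Actomyosin genes were higher after hypoxia, in both fractions, with more members called in the CD44hi one. In CD44hi cells after hypoxia 29 of the 34 tested members were called higher than in untreated cells and 0 lower, where 26.9% of all genes were called in either direction, 12.8% were called higher and 14.1% lower. Their median log2 change was 1.25, against 0.00 over all genes. In the CD44-/lo fraction after hypoxia 21 members were called higher and 1, CAPG, lower, where 22.5% of all genes were called, 10.7% higher and 11.7% lower, with a median of 0.81 against 0.02. After epirubicin 11 members were called higher in CD44hi cells, where 6.42% of all genes were called, 4.63% higher and 1.79% lower (median 0.52 against 0.00), and 2 in CD44-/lo cells, where 2.82% were called, 2.26% higher and 0.565% lower (median 0.18 against 0.03). No member was called lower in either epirubicin group. In bulk RNA a change in the proportion of cells that express a gene and a change in RNA per cell cannot be told apart.

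**Figure D1:**
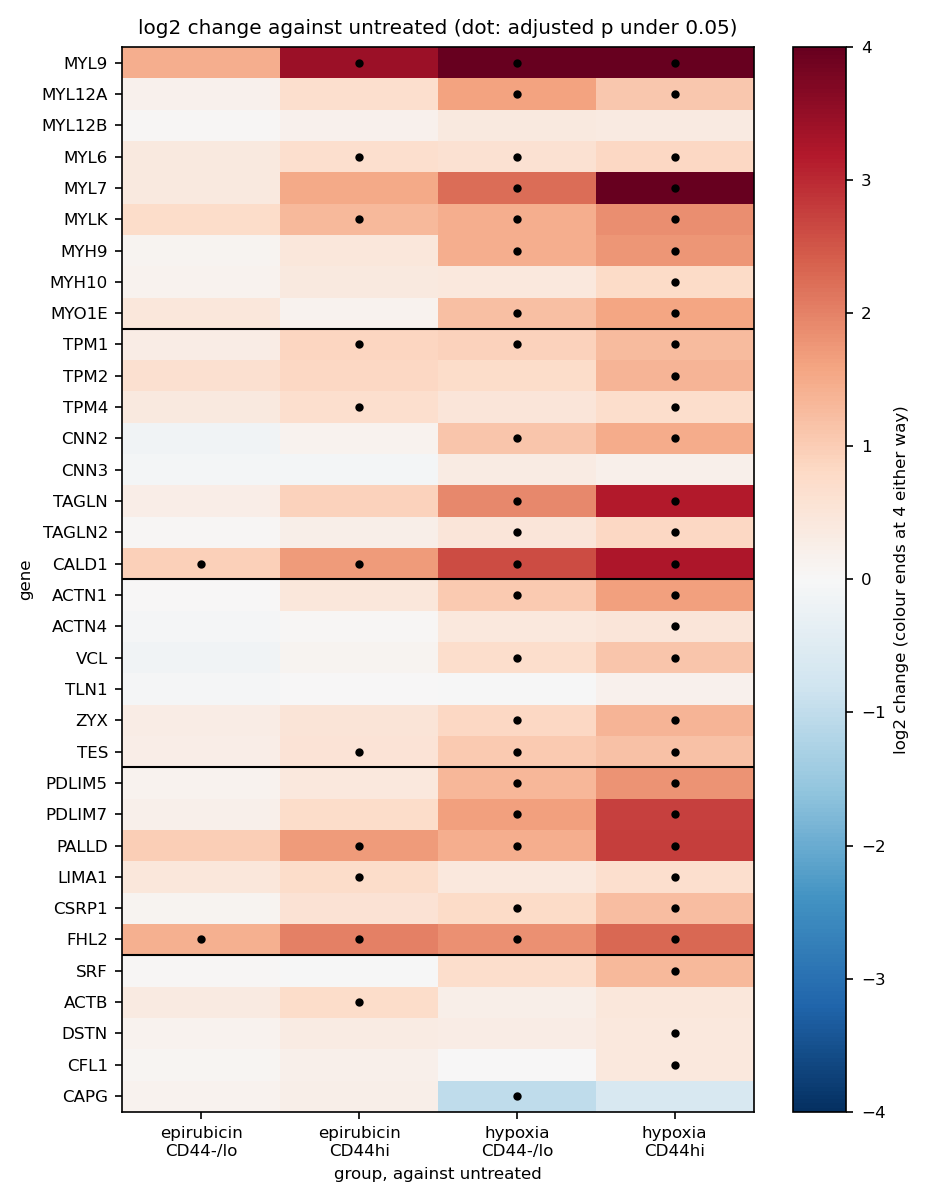
Colour gives the log2 change of each of the 34 tested members (rows, grouped by role with lines between groups) against untreated cells in the 4 sorted groups (columns), and a dot marks an adjusted p under 0.05. The hypoxia CD44hi column holds 29 dots, all on members with a rise, and the epirubicin CD44-/lo column holds 2, on CALD1 and FHL2.

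Groups that do not overlap gave the same picture from single arrays. All 4 CD44hi hypoxia arrays exceeded all 3 untreated arrays for 30 of 34 members, against 18.5% of all genes, and all 4 CD44-/lo hypoxia arrays for 27, against 15.2%. After epirubicin the numbers were 15 for CD44hi, against 13.0%, and 8 for CD44-/lo, against 13.4%. The mean of log2(signal + 4.2) was highest in the hypoxia CD44hi group for 28 members and lowest in untreated cells for 27. LIMA1, ACTB and CAPG had their highest mean on this scale in an epirubicin group.

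Myosin light chains included the members with the largest changes. MYL9, a regulatory light chain of smooth muscle and non-muscle myosin II, had signals of 17.3, 22.8 and 27.9 on the untreated arrays. It reached 49.7, 68.8, 63.3 and 101 in CD44-/lo cells and 129, 452, 140.1 and 739.6 in CD44hi cells after epirubicin. After hypoxia it reached 1315, 1156, 1168 and 1882 in CD44-/lo cells and 2905, 2555, 2345 and 3023 in CD44hi cells. The 5 groups thus lay in 1 order without overlap between neighbours, and within CD44hi after epirubicin arrays 2 and 4 stood well above arrays 1 and 3. Against untreated cells MYL9 rose 102-fold in CD44hi cells after hypoxia (log2 6.67 ± 0.41, adjusted p = 1.57e-09), 51.2-fold in CD44-/lo cells after hypoxia (log2 5.68 ± 0.41, adjusted p = 3.44e-08) and 10.7-fold in CD44hi cells after epirubicin (log2 3.42 ± 0.41, adjusted p = 7.05e-05). In CD44-/lo cells after epirubicin it was not called (log2 1.45 ± 0.41, adjusted p = 0.0623). It was called there with an offset of 1 (adjusted p = 0.0463), the compared groups only (0.00609) or the replicate block (0.0364). A second, dim MYL9 probe set was called in CD44hi cells after hypoxia (log2 3.03 ± 0.54, adjusted p = 0.000383 in a fit of every probe set) and not in the other groups (log2 0.14 to 0.78).

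MYL7, the atrial regulatory light chain, entered the test only through treated cells, since its untreated signals were 1.60, 2.10 and 1.30. They were 2.70, 2.20, 9.20 and 1.70 in CD44-/lo and 14.1, 33.4, 1.80 and 14.4 in CD44hi cells after epirubicin. After hypoxia they were 3.6, 7.10, 79.2 and 71.5 in CD44-/lo and 238, 43.2, 175 and 395 in CD44hi cells. The spread within a group was wide, with 2 of the 4 CD44-/lo hypoxia arrays under 10 and the lowest CD44hi array below the highest 2 CD44-/lo arrays. MYL7 was called in CD44hi cells after hypoxia (log2 4.85 ± 0.77, adjusted p = 0.000128) and in CD44-/lo cells after hypoxia (log2 2.22 ± 0.77, adjusted p = 0.0427). The CD44-/lo call ended without any of the 3 untreated arrays, or without CD44-/lo array 3 or 4 (adjusted p 0.095 to 0.142). It also ended under 8 other settings, with adjusted p from 0.0524 to 0.0872.

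MYL12A, a non-muscle regulatory light chain, gave 131, 206 and 172 in untreated cells and 990.2, 367, 476 and 401 in CD44-/lo and 244, 308, 579.9 and 386 in CD44hi cells after hypoxia. It was called in both (1.60 ± 0.32 and 1.09 ± 0.32 on the log2 scale, adjusted p = 0.00131 and 0.0143), and array 1 of the CD44-/lo group stood far above the other 3. The CD44hi call ended without untreated array 1 (adjusted p = 0.0819) or CD44hi array 3 (0.0532), and the 3 other MYL12A probe sets changed there by only 0.15 to 0.28, none of them called. In CD44-/lo cells they gave log2 0.35, 0.38 and 0.69, none called either (adjusted p = 0.623, 0.333 and 0.0814), and with the second probe set in place of the first that call ended (0.337). Its close paralogue MYL12B, whose mean signal was 1156 ± 88.6 in untreated cells and 1490.4 ± 204 in CD44hi cells after hypoxia, was called in no comparison with untreated cells. Probe sets annotated to several genes were left out, but single probes were not checked for sharing between MYL12A and MYL12B. MYL6, the essential light chain, went from 2971 ± 140.3 to 5282 ± 545 in CD44hi (log2 0.82 ± 0.19, adjusted p = 0.00316) and 4584 ± 559 in CD44-/lo cells after hypoxia (adjusted p = 0.0249). The CD44-/lo call ended without any untreated array or CD44-/lo array 3 or 4 (adjusted p 0.0528 to 0.0868).

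MYH9, the heavy chain of non-muscle myosin IIA, gave 523, 432 and 491 in untreated cells. Epirubicin arrays gave 503, 538, 579.8 and 466 in the CD44-/lo and 520.2, 846, 526 and 852 in the CD44hi fraction. Hypoxia arrays gave 1251, 1223, 1244 and 1561 in the CD44-/lo and 1868, 1472, 1596 and 1675 in the CD44hi fraction. Every hypoxia array exceeded every other array, with rises of 2.72-fold (log2 1.44 ± 0.17, adjusted p = 1.64e-05) and 3.41-fold (log2 1.77 ± 0.17, adjusted p = 8.36e-07). The epirubicin values, log2 0.11 ± 0.17 and 0.47 ± 0.17, were not called, and arrays 2 and 4 were the higher ones of the CD44hi group. MYH10, the heavy chain of non-muscle myosin IIB, gave 72.4, 90.8 and 85.8 in untreated and 123, 102, 149 and 219 in CD44hi hypoxia cells. The change was smaller (log2 0.76 ± 0.23, adjusted p = 0.0195), and the call ended without untreated array 1 (adjusted p = 0.0916) or CD44hi array 4 (0.0823), and with the second probe set, which gave log2 0.36 (adjusted p = 0.234). MYH10 averaged 91.8 ± 10.5 (CD44-/lo) and 109 ± 6.72 (CD44hi) after epirubicin and 115 ± 31.9 in CD44-/lo cells after hypoxia, and it was not called.

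MYLK, the myosin light chain kinase, gave 16.8, 19.8 and 24.4 in untreated cells, 24.4, 48.7, 34.8 and 43.0 in CD44-/lo and 62.1, 86.4, 33.1 and 54.8 in CD44hi cells after epirubicin. After hypoxia it gave 85.2, 74.7, 48.9 and 46.7 in the CD44-/lo and 87.1, 179.5, 69.0 and 45.4 in the CD44hi fraction. The untreated mean was lowest, and the treated groups overlapped with each other. It was called in both hypoxia fractions (log2 1.44 ± 0.37, adjusted p = 0.00808 for CD44-/lo, and log2 1.86 ± 0.37, adjusted p = 0.000833 for CD44hi) and in CD44hi cells after epirubicin (log2 1.31 ± 0.37, adjusted p = 0.0355). The epirubicin call ended without any array of the 2 groups but CD44hi array 3 (adjusted p 0.0609 to 0.162). With the second MYLK probe set the CD44-/lo hypoxia call ended (log2 0.87, adjusted p = 0.0837), as did the epirubicin call (log2 1.16, adjusted p = 0.0538). MYO1E, a single-headed class I myosin of the cell cortex, averaged 28.2 ± 3.36 in untreated, 71.4 ± 20.4 in CD44-/lo hypoxia and 93.2 ± 20.7 in CD44hi hypoxia cells (log2 1.57 ± 0.26, adjusted p = 0.000196 for the last), and 31.6 ± 7.53 in CD44hi cells after epirubicin, where it was not called.

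**Figure D2:**
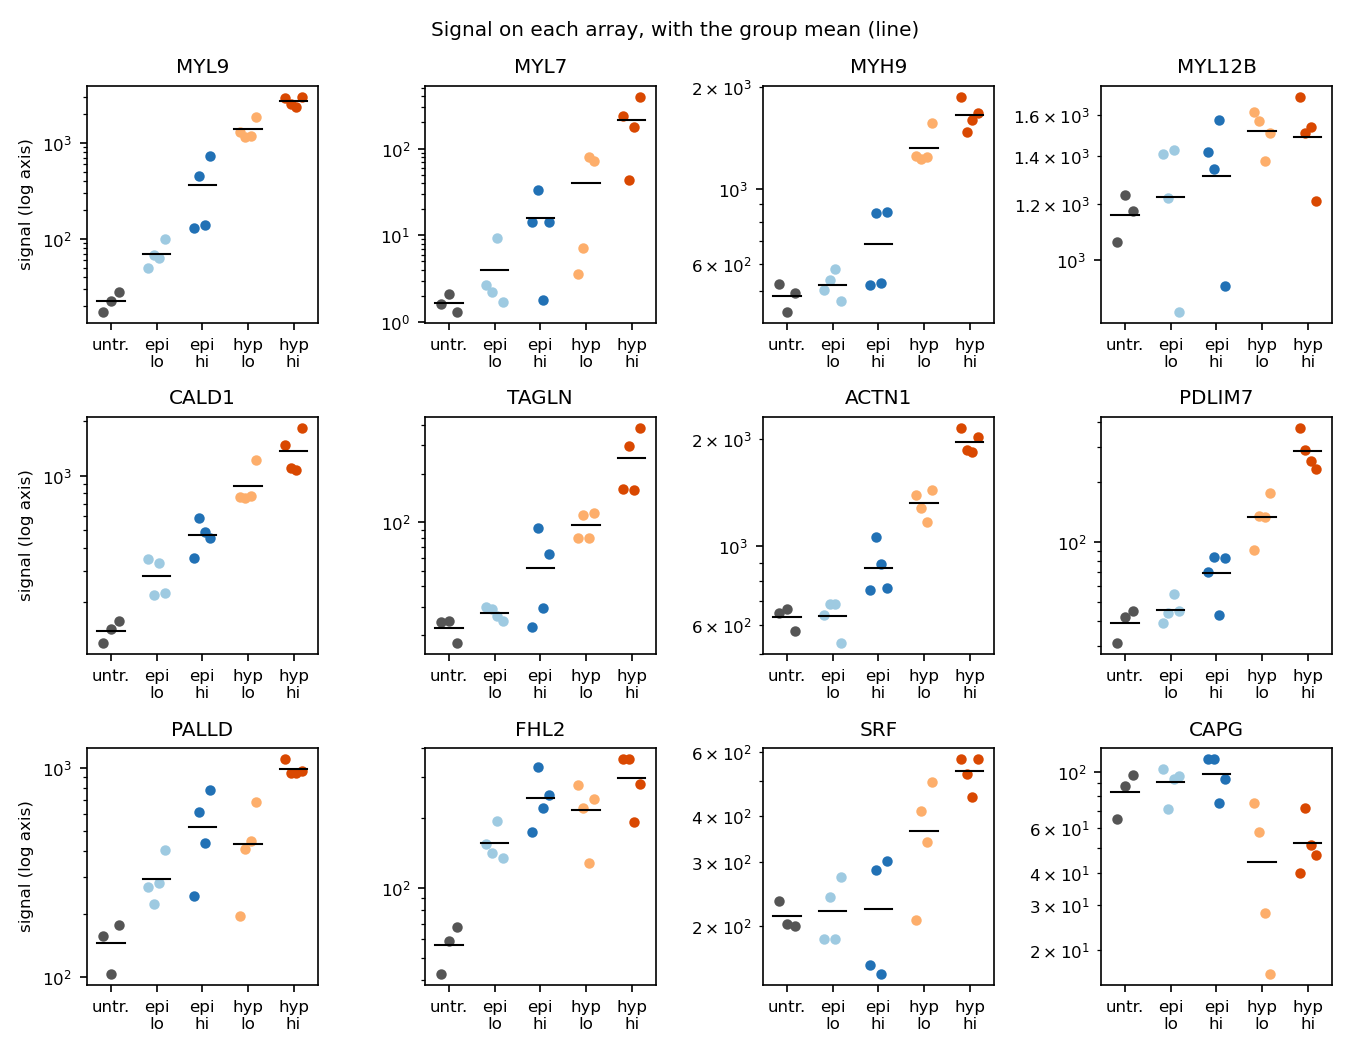
Each panel plots the signal of a member on every array (points, log axis) in the 5 groups, with the group mean as a line. MYL9 steps up through the groups without overlap, MYL12B shows no such step, and CAPG is lower on the hypoxia arrays of the CD44-/lo fraction, at 16 to 75.2, than its untreated mean of 83.3.

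Of 8 tested genes for filament-binding proteins, 7 were called higher in CD44hi and 5 in CD44-/lo cells after hypoxia, and 3 and 1 after epirubicin. Of all genes 12.8% and 10.7% were called higher in these hypoxia groups, and 4.63% and 2.26% in these epirubicin groups. CALD1, caldesmon, which inhibits the myosin ATPase along the filament, gave 119, 142 and 158 in untreated cells. After epirubicin it gave 349.5, 219.5, 329 and 225 in CD44-/lo and 350.1, 589, 487 and 457 in CD44hi cells, and after hypoxia 760.1, 759, 776 and 1228 in CD44-/lo and 1480.2, 1105, 1080.3 and 1843 in CD44hi cells. All treated arrays lay above all untreated arrays. The changes were log2 0.96 ± 0.23, 1.71 ± 0.23, 2.60 ± 0.23 and 3.24 ± 0.23 in that order of groups, with adjusted p of 0.026, 0.000201, 3.72e-07 and 9.4e-09. The first of these calls ended without untreated array 1 or 2 or CD44-/lo array 1 or 3 (adjusted p 0.0888 to 0.177), whereas the other 3 held under every setting tried.

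TAGLN, transgelin or SM22, an early smooth muscle differentiation marker and a classic SRF target, gave 24.1, 24.4 and 17.8 in untreated cells. After epirubicin it gave 30.0, 28.9, 26.1 and 24.5 in CD44-/lo and 22.3, 92.1, 29.6 and 63.9 in CD44hi cells. After hypoxia it gave 80.4, 111, 80.3 and 115 in CD44-/lo and 161, 297, 159 and 384 in CD44hi cells. The CD44hi hypoxia arrays were above all others and rose 9.07-fold over untreated cells (log2 3.18 ± 0.36, adjusted p = 4.49e-06), and the CD44-/lo ones 3.81-fold (log2 1.93 ± 0.36, adjusted p = 0.000867). In CD44hi cells after epirubicin only arrays 2 and 4 exceeded the untreated range clearly, and the change was not called (log2 0.91 ± 0.36, adjusted p = 0.135) unless array 1 was left out (log2 1.21, adjusted p = 0.0451). Its relative TAGLN2 went from 1450.2 ± 41.9 to 2568 ± 228 in CD44hi hypoxia cells (log2 0.82 ± 0.12, adjusted p = 7.95e-05).

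Of the calponins only CNN2 was called against untreated cells. CNN2, the non-muscle calponin that restrains filament sliding, averaged 412 ± 65.8 in untreated cells, 374 ± 56.6 and 462 ± 104 after epirubicin, and 894 ± 171 and 1146 ± 64.0 after hypoxia (CD44-/lo first). The hypoxia values were the ones called (log2 1.10 ± 0.18, adjusted p = 0.00024 and log2 1.48 ± 0.18, adjusted p = 8.57e-06), and its probe set is of the type that admits shared probes. CNN3 was not called in any comparison with untreated cells (log2 0.20 ± 0.27 in CD44hi hypoxia cells), and CNN1, the calponin of differentiated smooth muscle, had signals of at most 7.4.

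The 3 measured tropomyosins, coiled coils that gate myosin access to actin, rose in CD44hi cells after hypoxia. TPM1 averaged 2003 ± 179 in untreated and 4824 ± 339.8 in CD44hi hypoxia cells (log2 1.27 ± 0.25, adjusted p = 0.000942), and all 6 of its probe sets were called there. TPM2 gave 82.9, 92.3 and 98.3 in untreated and 386, 312, 211 and 132 in CD44hi hypoxia cells (log2 1.37 ± 0.29, adjusted p = 0.0015), with array 4 of the latter well below the other 3. Its other probe sets changed by log2 0.31 and 0.59 and were not called (adjusted p = 0.703 and 0.441), and the call ended with the mean of all probe sets (0.75, adjusted p = 0.0552). TPM4 averaged 3041 ± 247 and 4935 ± 439 (log2 0.70 ± 0.18, adjusted p = 0.00724). Of its other probe sets, changes of log2 0.76 and 1.01 were called (adjusted p = 0.0027 and 0.000102) and one of 0.19 was not (0.711), and with the mean of all of them the call ended (0.42, adjusted p = 0.0679). In CD44-/lo hypoxia cells only TPM1 was called (log2 0.92 ± 0.25, adjusted p = 0.0129, or adjusted p = 0.0602 without untreated array 2). TPM4 (log2 0.47 ± 0.18, adjusted p = 0.0666) became called with its second probe set (0.0438), with quantile normalization (0.00622) and under other settings. TPM2 (log2 0.73 ± 0.29, adjusted p = 0.0729) did so with the compared groups only (0.0332) or the replicate block (0.0293).

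Cross-linkers and adhesion proteins followed. ACTN1, the non-muscle alpha-actinin of stress fibres, gave 649, 666 and 579.9 in untreated cells, 641, 690.2, 690.0 and 535 in CD44-/lo and 753, 1060.0, 893 and 762 in the CD44hi fraction after epirubicin, and 1389, 1278, 1169.5 and 1441 in CD44-/lo and 2147, 1861, 1832 and 2019 in CD44hi cells after hypoxia. CD44hi arrays lay above CD44-/lo arrays after each treatment, with no overlap. The hypoxia changes were called (log2 1.06 ± 0.14, adjusted p = 3.54e-05 and log2 1.63 ± 0.14, adjusted p = 1.21e-07). A second ACTN1 probe set, dim throughout, went the other way without a call (log2 -0.32 and -0.30). The remaining ACTN1 probe sets, of the cross-hybridising type, were called in both hypoxia fractions (log2 1.59 and 2.42, and log2 1.09 and 1.90). ACTN4, its paralogue, changed less in CD44hi hypoxia cells (log2 0.50 ± 0.17, adjusted p = 0.0367), and that call was lost on leaving out any 1 array of the 2 groups other than CD44hi array 4 (adjusted p 0.0561 to 0.129).

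VCL, vinculin, which links adhesion complexes to actin under tension, averaged 1283 ± 105 in untreated cells. It averaged 2112 ± 468 and 2792 ± 359 in CD44-/lo and CD44hi cells after hypoxia (log2 0.69 ± 0.19 and 1.11 ± 0.19, adjusted p = 0.0124 and 0.000225, the first 0.0537 without untreated array 3). TLN1, talin, which vinculin binds, was called in no comparison with untreated cells, at 539 ± 115 in untreated and 618 ± 189 in CD44hi hypoxia cells. ZYX, zyxin, a tension-sensitive LIM protein, gave 270.2, 214 and 239.7 in untreated, 330.3, 474, 346 and 644 in CD44-/lo hypoxia and 749, 608, 507 and 682 in CD44hi hypoxia cells. Both were called (log2 0.84 ± 0.23, adjusted p = 0.0133 and log2 1.37 ± 0.23, adjusted p = 0.000204), the first not without untreated array 2 (adjusted p = 0.0646) or CD44-/lo array 4 (0.0546). TES, testin, a partner of zyxin, rose in both (log2 1.05 ± 0.15, adjusted p = 8.72e-05 and log2 1.18 ± 0.15, adjusted p = 1.79e-05).

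All 6 tested PDZ-LIM, LIM and palladin genes were called higher in CD44hi cells after hypoxia, where 12.8% of all genes were called higher. PDLIM7, a PDZ-LIM scaffold on filaments, gave 30.9, 41.7 and 44.9 in untreated cells. It gave 38.9, 43.7, 54.8 and 44.8 in CD44-/lo and 70.4, 83.7, 43.0 and 82.3 in the CD44hi fraction after epirubicin, and 90.7, 135, 134 and 176 in CD44-/lo and 373, 287, 254 and 231 in CD44hi cells after hypoxia. The 2 hypoxia fractions were separate from each other and from all other arrays, at 3.13-fold (log2 1.65 ± 0.25, adjusted p = 0.000114) and 6.66-fold (log2 2.73 ± 0.25, adjusted p = 2.43e-07) above untreated cells. The CD44hi change after epirubicin was not called (log2 0.74 ± 0.25, adjusted p = 0.0761) unless array 3 was left out (log2 0.95, adjusted p = 0.0277).

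PALLD, palladin, which organises actin bundles with alpha-actinin, gave 157, 103 and 176 in untreated cells. Epirubicin arrays gave 269, 222, 280.4 and 405 in CD44-/lo and 242, 617, 434 and 786 in CD44hi cells, and hypoxia arrays 196, 408, 444 and 684 in CD44-/lo and 1106, 950.2, 942 and 965 in CD44hi cells. The CD44hi hypoxia arrays were the highest 4 of all and close to each other. It rose in CD44hi cells after hypoxia (log2 2.77 ± 0.35, adjusted p = 1.37e-05), in CD44-/lo cells after hypoxia (log2 1.45 ± 0.35, adjusted p = 0.00596) and in CD44hi cells after epirubicin (log2 1.72 ± 0.35, adjusted p = 0.00592, or 0.0542 without untreated array 2).

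FHL2, a LIM-only cofactor that binds SRF and is itself an SRF target, gave 42.4, 58.9 and 68.0 in untreated cells. After epirubicin it gave 154, 142, 193 and 135 in CD44-/lo and 173, 332, 221 and 252 in CD44hi cells, and after hypoxia 278, 222, 128 and 240.5 in CD44-/lo and 359, 360.4, 193 and 282 in CD44hi cells. All treated arrays exceeded all untreated ones, and the 2 treatments overlapped. Changes of log2 1.41 ± 0.27, 2.02 ± 0.27, 1.84 ± 0.27 and 2.30 ± 0.27 were all called (adjusted p = 0.00631, 0.000175, 8.69e-05 and 5.58e-06), the first not without untreated array 1 (0.0723). PDLIM5 went from 365 ± 24.0 in untreated to 939 ± 146 and 1274 ± 188 in the hypoxia fractions (log2 1.34 ± 0.19, adjusted p = 6.48e-05 and log2 1.78 ± 0.19, adjusted p = 2.12e-06). CSRP1, a cysteine-rich LIM protein, rose in CD44hi hypoxia cells to 3790.1, 3751, 3852 and 3768 from 1662, 1554 and 1602 (log2 1.24 ± 0.20, adjusted p = 0.000169). LIMA1, EPLIN, which stabilises filaments, was higher in CD44hi cells after either treatment (log2 0.72 ± 0.17, adjusted p = 0.0138 for epirubicin and log2 0.67 ± 0.17, adjusted p = 0.00633 for hypoxia). The epirubicin call ended without untreated array 1 or 2 (adjusted p = 0.0829 and 0.101).

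SRF itself gave 235, 203 and 201 in untreated cells, 185, 241, 185 and 272 in CD44-/lo and 157, 285, 148 and 302 in the CD44hi fraction after epirubicin, and 208, 414, 341 and 495 in CD44-/lo and 573, 523, 451 and 574 in CD44hi cells after hypoxia. Only the CD44hi hypoxia arrays lay above all untreated arrays as a group, 2.46-fold higher (log2 1.30 ± 0.27, adjusted p = 0.00121). The CD44-/lo hypoxia change was not called (log2 0.70 ± 0.27, adjusted p = 0.0635), but it was called without CD44-/lo array 1 (log2 0.94, adjusted p = 0.0108), with the mean of all probe sets (0.76, adjusted p = 0.0245), with the second probe set (0.82, adjusted p = 0.0356) and with the replicate block (adjusted p = 0.0462). In CD44hi cells after epirubicin the change was log2 0.00 ± 0.27, with arrays 2 and 4 above and arrays 1 and 3 below the untreated range. All 9 tested members with a CArG box in their promoter window, SRF among them, were called higher in CD44hi cells after hypoxia, as were 18 of the 22 tested members in the promoter table without one. In CD44-/lo hypoxia cells the numbers were 7 of 9 and 12 of 22, and in CD44hi epirubicin cells 4 of 9 and 5 of 22. Of all genes 12.8%, 10.7% and 4.63% were called higher in these groups, in that order. MYL9 and TAGLN, not in the promoter table, are on neither side, and the part of the box was not tested.

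SRF, ACTB, DSTN, CFL1 and CAPG, of which the last 4 set filament mass and turnover, had the lowest median of the roles in CD44hi hypoxia cells (log2 0.43). ACTB, beta-actin, was read from a probe set of the cross-hybridising type and gave 5159, 5348 and 5836 in untreated cells, 6396, 5089.6, 7790.2 and 9486 in CD44-/lo and 7986, 5781, 11553 and 12917 in the CD44hi fraction after epirubicin, and 6438, 6018, 6216 and 7071 in CD44-/lo and 8025, 6779, 7884 and 7064 in CD44hi cells after hypoxia. It was called in CD44hi cells after epirubicin alone (log2 0.74 ± 0.21, adjusted p = 0.0425), where array 2 lay within the untreated range and arrays 3 and 4 were highest. Quantile normalization of the arrays turned this change to log2 -0.05 (adjusted p = 0.731), and no direction is given for it. ACTG1 had no probe set of its own. DSTN and CFL1, which sever and depolymerise filaments, rose little in CD44hi hypoxia cells (log2 0.43 ± 0.13, adjusted p = 0.0173 and log2 0.43 ± 0.16, adjusted p = 0.0451). The DSTN call ended without untreated array 1 or 2 (adjusted p = 0.0864 and 0.0559), and the CFL1 call without any array of the 2 groups (0.055 to 0.153). CAPG, which caps filament ends, was the exception in sign, at 65.2, 87.6 and 97.0 in untreated and 75.2, 58.1, 27.9 and 16 in CD44-/lo hypoxia cells (log2 -1.03 ± 0.34, adjusted p = 0.0341). That call ended without any untreated array or without CD44-/lo array 3 or 4 (adjusted p 0.0512 to 0.128).

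**Figure D3:**
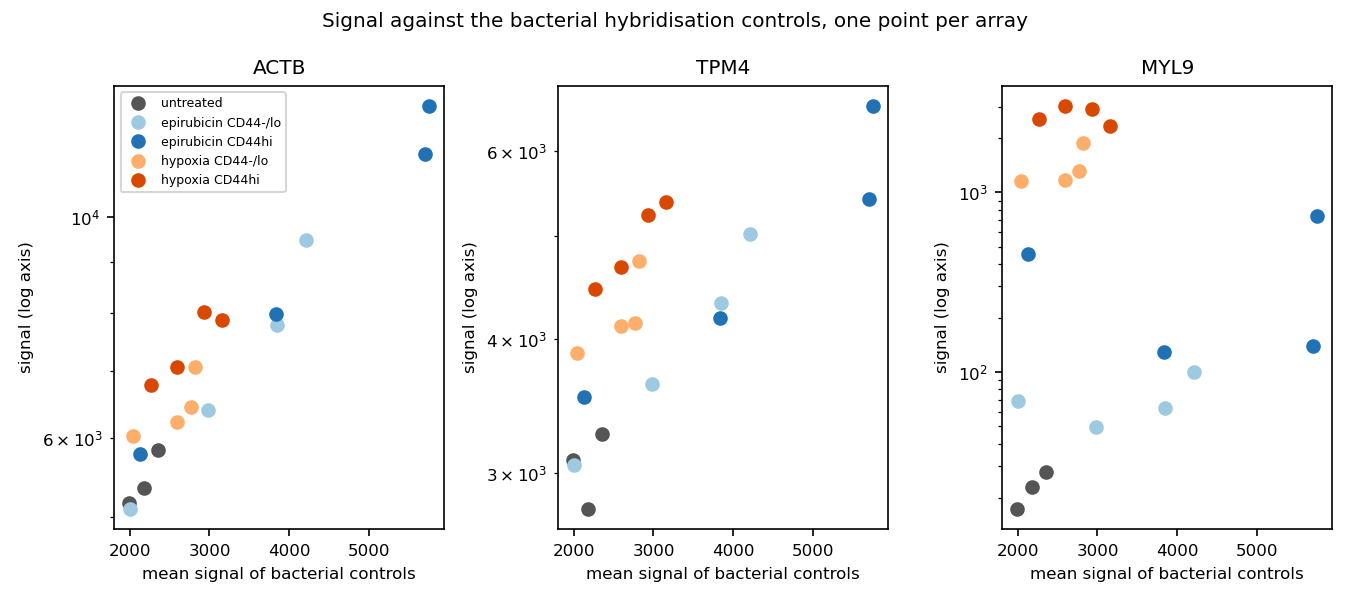
Signals of ACTB, TPM4 and MYL9 (log axes) are plotted against the mean signal of the bacterial hybridisation controls on the same array, with 1 point per array coloured by group. The ACTB and TPM4 points climb with the controls across groups, up to the CD44hi epirubicin arrays 3 and 4 at 5703 and 5755, whereas the hypoxia arrays carry the highest MYL9 signals at controls of 2035 to 3162.

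Of the 11 calls in CD44hi cells after epirubicin, 2 held under every setting tried. The hybridisation controls of these arrays, at 3836, 2131, 5703 and 5755, and their ACTB 3' to 5' ratios, up to 1.85, exceeded the untreated range on arrays 1, 3 and 4. With the controls as a covariate 4 members were called instead of 11, with the ACTB ratio as a covariate 4, and without the epirubicin arrays numbered 4 there were 6. Leaving out untreated array 1, 2 or 3 left 4, 3 and 5 called members, and leaving out CD44hi array 3 or 4 left 7 and 5. MYL6, TPM1, TPM4 and ACTB stood at log2 0.09 to 0.35 with the controls as a covariate, and none was called. Each of these calls also ended without any untreated array, or without CD44hi array 3 or 4 (adjusted p 0.0593 to 0.184). CALD1 and FHL2 were called under every setting tried, and MYL9 under all but the use of its second probe set (log2 0.48, adjusted p = 0.646). TES, called at log2 0.53 ± 0.15, adjusted p = 0.0425, was lost without any array of the 2 groups but CD44hi array 1 (adjusted p 0.0675 to 0.185). CSRP1 became called without CD44hi array 1 (0.0257), and DSTN without array 2 (0.0401).

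**Figure D4:**
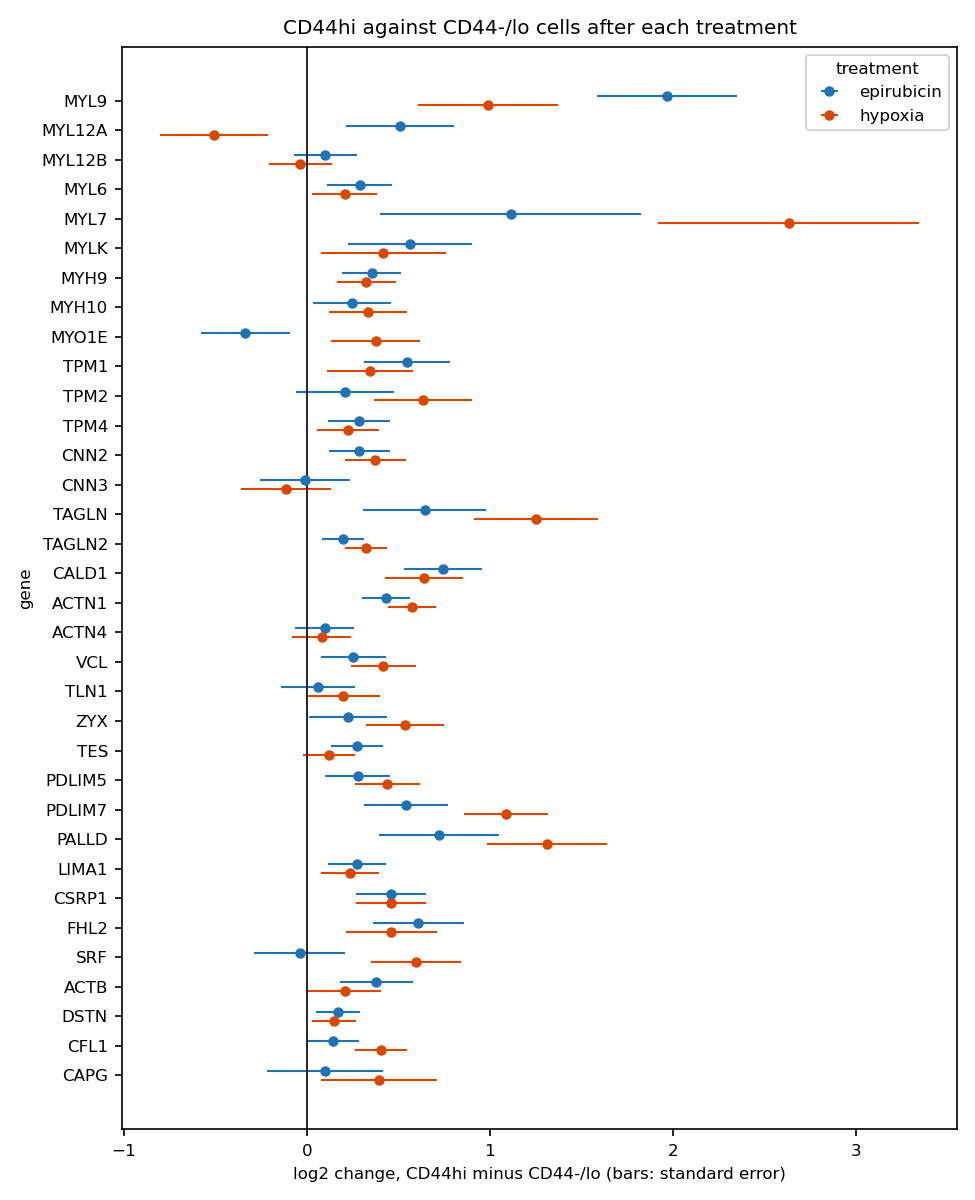
Points give the log2 change of CD44hi against CD44-/lo cells for each tested member after epirubicin and after hypoxia, with bars of 1 standard error, in the order of roles. Of the 34 points, 31 lie above 0 after epirubicin (all but MYO1E, CNN3 and SRF) and 31 after hypoxia (all but MYL12A, MYL12B and CNN3), MYL9 leads after epirubicin at 1.97 and MYL7 after hypoxia at 2.63, and 0 members were called.

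Whether CD44hi cells differed from CD44-/lo cells was tested within each treatment. After epirubicin 0 of 34 members were called, where 0.0232% of all genes (3) were called, and after hypoxia 0, where 0.0% (0) were called. At an unadjusted p under 0.05 there were 9 members and 312 genes after epirubicin, and 16 members and 889 genes after hypoxia. The change was positive for 31 members after epirubicin and for 31, not all of them the same, after hypoxia, with medians of 0.28 and 0.39 (all genes -0.02 and 0.00). Deviations of samples of equal number correlated at 0.114 to 0.546 after epirubicin and at -0.041 to 0.633 after hypoxia. Whether they are pairs is not settled, and they were also compared pair by pair. CD44hi exceeded CD44-/lo in all 4 pairs for 16 members after epirubicin, against 7.79% of all genes. After hypoxia the number was 22, against 10.4%. Bacterial controls were also higher on the CD44hi array of every epirubicin pair (3836, 2131, 5703 and 5755 against 2980, 2008, 3845 and 4217). MYL6, TPM1, TPM4, ACTB and DSTN were among the 16 members. The part of array quality in that count was not tested.

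After epirubicin the fractions were separate for 3 members, MYL9, CALD1 and ACTN1, where 0.766% of all genes were higher without overlap. MYL9 was 3.91-fold higher in CD44hi cells (log2 1.97 ± 0.38, adjusted p = 0.117). In the fit blocked by replicate number its adjusted p passed (log2 1.97 ± 0.30, adjusted p = 0.0176), and also without CD44hi array 1 (0.0123) or array 3 (0.0317). Arrays 2 and 4 of the CD44hi group both exceeded arrays 1 and 3 for 14 of the 34 members, MYL9, TAGLN, MYH9, ZYX, SRF and PALLD among them, against 19.3% of all genes, and not for the other 20, such as ACTB, MYL6 and TPM4. They also had the higher CD44 signals, 1268 and 769 against 216 and 340.1. No label sets arrays 2 and 4 apart. This grouping was taken from the same signals, so the count of 14 is a description and no independent evidence. The part of the CD44 level in these values was not tested. After hypoxia the fractions were separate for 9 members, where 1.28% of all genes were higher without overlap, among them TAGLN (log2 1.25 ± 0.34, adjusted p = 0.509), PALLD (log2 1.31 ± 0.33, adjusted p = 0.454), PDLIM7 (log2 1.09 ± 0.23, adjusted p = 0.359) and ACTN1 (log2 0.57 ± 0.13, adjusted p = 0.413). How the CD44hi minus CD44-/lo change differed between hypoxia and epirubicin was called for 0 members and 0 genes (0.0%), with 1 member and 265 genes at an unadjusted p under 0.05.

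The treatments were compared within each fraction. In CD44hi cells 17 members were called higher after hypoxia than after epirubicin and 0 lower, where 18.2% of all genes were called, 8.0% higher and 10.2% lower. For 16 members all 4 hypoxia arrays exceeded all 4 epirubicin arrays, against 8.24% of all genes. In CD44-/lo cells 14 were called higher and 1, CAPG, lower, where 16.9% were called, 7.08% higher and 9.84% lower, and 14 were higher without overlap, against 7.33%. MYL9 was 9.49-fold higher after hypoxia in CD44hi (log2 3.25 ± 0.38, adjusted p = 8.64e-06) and 18.7-fold higher in CD44-/lo cells (log2 4.22 ± 0.38, adjusted p = 3.59e-07). MYH9 (1.30 ± 0.16 and 1.33 ± 0.16 on the log2 scale) and CNN2 (1.33 ± 0.17 and 1.24 ± 0.17) had adjusted p of 1.23e-05 to 3.22e-05. SRF was called higher in CD44hi cells (log2 1.30 ± 0.25, adjusted p = 0.00092) but not in CD44-/lo cells (log2 0.67 ± 0.25, adjusted p = 0.07), where it was called without CD44-/lo hypoxia array 1 (0.00986), without the epirubicin arrays numbered 4 (0.0439), with the mean of all probe sets (0.0354) and with the replicate block (0.0149). FHL2 was called in neither (log2 0.28 ± 0.25 and 0.43 ± 0.25), nor were MYLK and LIMA1. The calls of CSRP1 and PALLD in CD44hi cells ended without CD44hi epirubicin array 1 (adjusted p = 0.0797 and 0.128) or array 3 (0.0531 and 0.0754), and that of PALLD also without CD44hi hypoxia array 1, 3 or 4 (0.0506 to 0.0772). In CD44-/lo cells CSRP1 lost its call without epirubicin array 1 (0.0584) or hypoxia array 4 (0.0642), and MYO1E without epirubicin array 1 or 2 or hypoxia array 2, 3 or 4 (0.0582 to 0.155). The 1 lower member, CAPG (log2 -1.16 ± 0.32, adjusted p = 0.0143), lost its call without CD44-/lo hypoxia array 3 or 4 (0.0507 and 0.058).

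Other lists of actin genes were counted in the same fit, where 12.8% of all genes were called higher and 14.1% lower in CD44hi hypoxia cells. Of 14 tested MRTF-SRF cofactors and actin monomer binders, 5 were called higher and 0 lower in CD44hi hypoxia cells. MRTFA, an actin-sensing SRF cofactor, gave 157, 155 and 122 in untreated cells and 829, 653, 563 and 579 in CD44hi hypoxia cells (log2 2.14 ± 0.27, adjusted p = 1.44e-05). TMSB4X, thymosin beta 4, which sequesters actin monomers, averaged 394 ± 146 in untreated and 1858 ± 397 in CD44hi hypoxia cells (log2 2.26 ± 0.26, adjusted p = 5.13e-06). GSN, gelsolin, which severs filaments, rose as well (log2 2.09 ± 0.21, adjusted p = 1.34e-06).

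Of 17 other MRTF-SRF target genes, 9 were called higher and 1 lower in CD44hi hypoxia cells, 8 and 1 in the CD44-/lo fraction, and 4 and 0 in CD44hi cells after epirubicin. The muscle actins ACTA1, ACTA2 and ACTG2 were among them, at 2257 ± 529, 872 ± 183 and 429 ± 60.6 in CD44hi hypoxia cells from 7.13 ± 0.603, 13.8 ± 4.25 and 13.7 ± 1.29 in untreated cells (adjusted p = 1.52e-09, 6.77e-09 and 5.47e-08). ACTA1 and ACTG2 lay under the signal filter on all untreated arrays and entered the test only through treated groups, so that they had to differ. ACTA2, at 11.1, 11.6 and 18.7 in untreated cells, was above the filter on untreated array 3 alone. It too passed the filter only through treated arrays, so its adjusted p against untreated cells shares this limit. ACTA2 differed between CD44hi and CD44-/lo cells after epirubicin (log2 2.73 ± 0.36, adjusted p = 0.00287), as did ACTA1 (adjusted p = 0.0264). Of 25 other focal adhesion adaptors, 11 were called higher and 3 lower in CD44hi hypoxia cells, with the adhesion scaffold NEDD9 (log2 2.41 ± 0.29, adjusted p = 7.25e-06) and the kindlin FERMT2 (log2 2.13 ± 0.26, adjusted p = 8.53e-06) higher and TNS1, tensin 1, lower (log2 -1.92 ± 0.46, adjusted p = 0.0038).

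Of 19 bundlers and membrane linkers, 9 were called higher and 1 lower in CD44hi hypoxia cells, led by FSCN1, fascin, which bundles filaments in protrusions (log2 3.53 ± 0.74, adjusted p = 0.00141), and LCP1, plastin 2 (log2 2.54 ± 0.27, adjusted p = 1.73e-06). Of 20 genes of branched actin and capping, 6 were called higher and 1 lower, the latter being ARPC1B, an Arp2/3 subunit (log2 -1.27 ± 0.29, adjusted p = 0.00288). Of 14 genes on the list of other myosins 2 were called higher and 0 lower, MYH14, the heavy chain of non-muscle myosin IIC (log2 0.94 ± 0.20, adjusted p = 0.00193), and LUZP1, a leucine zipper protein that is no myosin (log2 1.21, adjusted p = 0.0239). Median log2 changes of these lists in CD44hi hypoxia cells were 0.37 for cofactors, 1.54 for other targets, 0.54 for adaptors, 0.24 for branched actin, 0.53 for bundlers and 0.04 for myosins, beside 1.25 for the actomyosin genes and 0.00 for all genes.

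**Figure D5:**
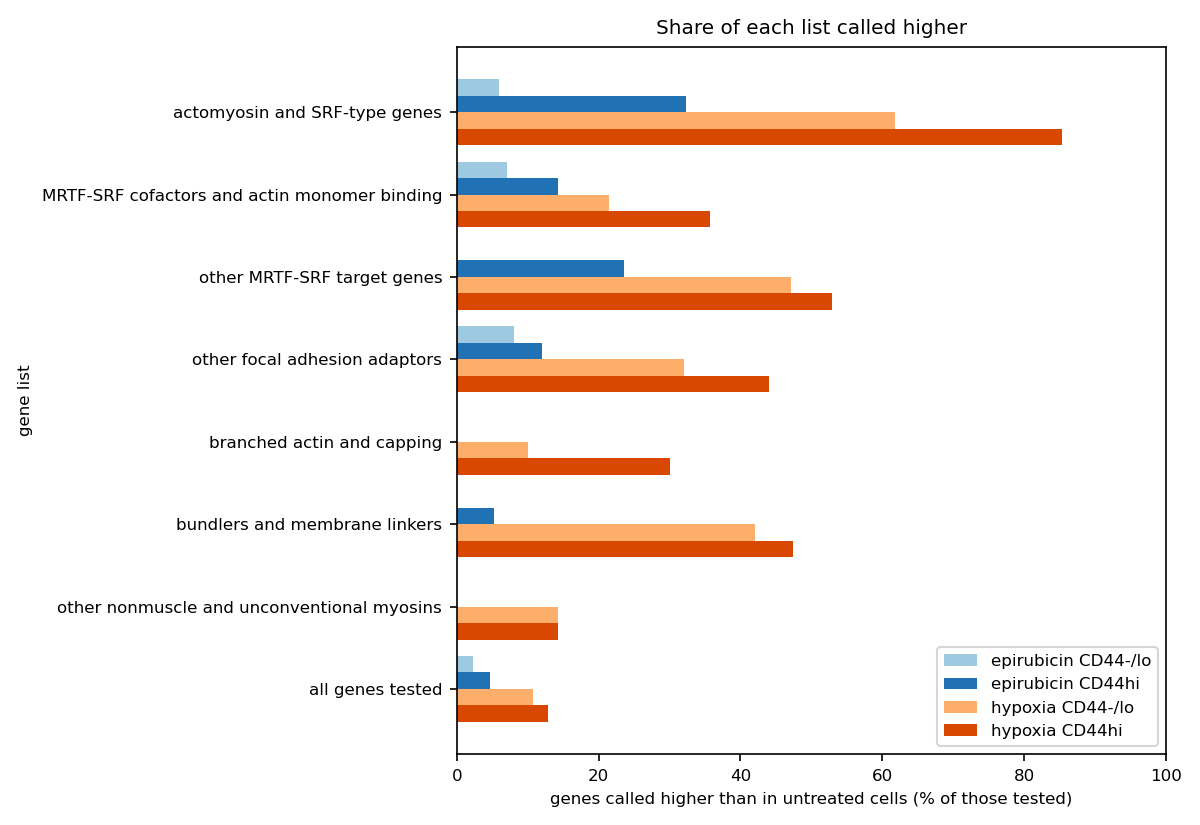
Bars give the percent of tested genes called higher than in untreated cells in each of the 4 sorted groups, for the actomyosin genes, the 6 other lists and all genes tested. In CD44hi hypoxia cells the bars stand for 29 of 34 actomyosin genes, 9 of 17 other MRTF-SRF targets and 2 of 14 genes on the list of other myosins, beside 12.8% of all genes.

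Markers of other cell types were read on the same arrays. The 8 markers listed for SKBR3 epithelial identity were all tested, with summed signals of 15902 to 18554 in untreated and 17088 to 19246 in CD44hi hypoxia cells. Of these 1 was called lower there, SPDEF, a luminal transcription factor, with 367.3 to 427.2 in untreated and 3.3 to 197.0 in CD44hi hypoxia cells. CDH1, on the same list, gave only 2.3 to 5.2 in untreated cells, under the filter, and entered the test only through treated arrays. Of 8 smooth muscle markers 3 were tested (MYH11, SMTN and ACTG2), LMOD1, MYOCD and CNN1 were under the signal filter on every array, and the list summed to 379 to 403 in untreated and 493 to 667 in CD44hi hypoxia cells. Within that sum MYH11, smooth muscle myosin heavy chain, was called lower, with 295.9 to 320.8 in untreated and 49.5 to 148.2 in CD44hi hypoxia cells. ACTG2, which is also on the list of other MRTF-SRF targets, was called higher, with 12.6 to 15.1 in untreated and 344.9 to 489.9 in CD44hi hypoxia cells. Of 15 skeletal and cardiac markers 4 were tested and 9, among them MYOD1, MYOG and CKM, were under the filter on every array, with sums of 91.7 to 114 and 141 to 249. Of 10 fibroblast markers only COL1A1 was tested, COL3A1, DCN, LUM and FAP were under the filter on every array, and the sums were 41.7 to 63.4 and 73.3 to 109. Endothelial markers summed to 59.8 to 61.2 in untreated and 120 to 160 in CD44hi hypoxia cells, and immune markers to 99.4 to 127 and 143 to 628. The skeletal and cardiac, endothelial and immune lists each had 1 marker called higher in CD44hi hypoxia cells and 0 lower. The immune one, CSF1R, gave 95.0 to 117.4 in untreated and 134.5 to 616.3 in CD44hi hypoxia cells. Endothelial CDH5 gave 31.1 to 36.2 in untreated, 86.5 to 103.3 in CD44hi hypoxia and 143.2 to 320.5 in CD44hi epirubicin cells. No marker was listed at 0 on every array, and the part of other cell types in the changes was not tested.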

How the data were processed

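Total RNA was labelled from 19 SKBR3 samples and read on arrays of 54675 probe sets. The deposited intensity values are linear MAS5 signals made by the authors, per the submitters' processing notes, and their trimmed mean of 100.0 per array shows that the arrays had been scaled. Version, settings and build are not given in the sources used here. Gene names came from the platform annotation. Control probe sets of the array maker were left out.

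From the deposited signals, log2 values were computed here after adding an offset of 4.2, the 25th percentile of all values. Genes with at least 3 arrays at or above 16.9, the median, were fitted together (5 group means, limma 3.58.1, R 4.3.3, empirical Bayes with a variance trend, two-sided, Benjamini-Hochberg adjustment over all genes tested), in 9 comparisons. The script was tested on simulated data. The number of arrays limits the precision.

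The members and the other gene lists were chosen with earlier results of these data known. One further gene list is not reported here. All members could be named. The 16 called members with the largest change against untreated cells, and SRF, MYLK, ACTB, MYH9 and MYH10, were to get values by array or group, CD44 was always named, and each other list up to 4 called genes. Equal replicate numbers in the labels were checked by the correlation of deviations from the group means. Epirubicin CD44-/lo and CD44hi samples of equal number correlated at 0.375, 0.546, 0.114 and 0.461, and hypoxia ones at -0.041, 0.633, 0.279 and 0.543. Between the treatments, CD44-/lo samples of equal number correlated at 0.367, 0.364, -0.072 and 0.182, and CD44hi ones at 0.035 to 0.141. Whether equal numbers mark shared cultures is thus not settled, and no label states it. The main fit used no pairing. Alternatives were the offset, filter, scaling, choice of probe set, variance trend, groups in the fit, the replicate block, array-quality covariates and arrays left out. The second probe set per gene was an alternative chosen after seeing the data, and so was the fit of every probe set.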

Additional observations from a re-analysis of the deposited data

Results flagged for a closer look

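In 7 of 136 sets of 4 arrays, 1 for each tested member and sorted group, a single array stood apart from the other 3 by more than Dixon's 95% critical value, and chance flags about 1 in 20 such groups. MYL12A was highest on CD44hi epirubicin array 2, at a signal of 357.5. MYH9 and CALD1 were both highest on CD44-/lo hypoxia array 4, at 1561.0 and 1228.4. MYO1E was lowest on CD44hi hypoxia array 2, at 62.7. ACTN4 was lowest on CD44-/lo epirubicin array 4, at 557.2. PALLD was highest on CD44hi hypoxia array 1, at 1106.2. CFL1 was lowest on CD44-/lo hypoxia array 1, at 1594.3.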

How the results depend on the processing

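The member counts in both hypoxia groups, against untreated cells and against epirubicin, stayed within 1.5 times under every setting, at 17 to 23 and 24 to 27 of 34 (main 22 and 29) and 13 to 18 and 15 to 19 (main 15 and 17) on leaving out 1 array. In CD44hi cells after epirubicin 11 called members became 5 with quantile normalization or no filter, 7 when all probe sets of a gene were averaged, 6 with no variance trend or without the epirubicin arrays numbered 4, and 4 with either array-quality covariate. Leaving out 1 array gave 3 to 12. In CD44-/lo cells after epirubicin 2 became 4 with the compared groups only, and 1 with the mean of all probe sets, the hybridisation covariate or the second probe set, and leaving out 1 array gave 0 to 2. Between the fractions 0 became 1 after epirubicin with the replicate block (MYL9), and leaving out 1 array gave 0 to 1. After hypoxia it stayed at 0, also with the block.

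Reversals were those of ACTB with quantile normalization, at log2 -0.048 in CD44hi cells after epirubicin against untreated, and at 0.19 and 0.18 in CD44-/lo and CD44hi cells for hypoxia against epirubicin, and those of ACTN1 with its second, dim probe set, at -0.32 and -0.30 in CD44-/lo and CD44hi hypoxia cells against untreated and -0.31 for hypoxia against epirubicin in CD44hi cells. The causes were not tested. All settings kept 12 of 22 and 21 of 29 member calls in the hypoxia fractions, 9 of 15 and 14 of 17 between treatments, 2 of 11 in CD44hi and 0 of 2 in CD44-/lo cells after epirubicin. Over all genes, 365 calls in CD44-/lo cells after epirubicin became 1190 with the compared groups only, 600 with the replicate block, 117 with the hybridisation covariate, 211 without the epirubicin arrays numbered 4 and 550 without the hypoxia arrays numbered 2, and 830 in CD44hi cells became 1356, 116 with that covariate, 279 with the ACTB ratio and 465 without the arrays numbered 4. Leaving out 1 array gave 74 to 442 and 218 to 898 there. Between the fractions 3 calls after epirubicin became 1 or 0 under 5 settings, and 0 after hypoxia became 4 with the block.

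Numbers of 3 to 4 arrays per group limit precision, members near the offset have understated changes, 7 members gave no test, and sort and treatment are joined in every comparison with untreated cells.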
